A study of Mus musculus with 21 samples.

Results

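The net state of lung fibroblasts after TGFb1 and TNF together was compared with the DMSO baseline, using the 3 libraries of cells given TGFb1 + TNF and the 3 libraries of cells given DMSO, 6 of the 21 libraries of the series. The cells were mouse lung fibroblasts that carry the surface proteins Ly6C and Sca-1, and a stranded kit turned their total RNA into libraries. The TGFb1 + TNF cells received both cytokines and their label names no solvent, whereas the DMSO cells received the solvent and no cytokine, so that solvent and cytokines cannot be told apart in this comparison alone. The 3 libraries of cells given TGFb1 without TNF, whose label also names no solvent, served as the middle state. The labels give no strain, age, dose, time or culture of origin. The p-values therefore measure only the spread between libraries of the same group, estimated over all 21 libraries, and this spread may be technical.

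TGFb1 binds a receptor kinase pair that phosphorylates SMAD2 and SMAD3, and in fibroblasts it drives collagen synthesis and the contractile program of the myofibroblast. TNF acts through TNFR1 and the IKK complex to free NF-kB, which switches on chemokines, cytokines and its own inhibitors, and it also feeds the stress kinases upstream of AP-1. Sca-1+ lung fibroblasts are commonly placed in the adventitia around airways and vessels, where they make proteoglycans, complement and chemokines.

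Library totals were 25609647 to 27273505 counts in TGFb1 + TNF, 19796379 to 28445604 in TGFb1 and 23546115 to 28441137 in DMSO, and no 2 libraries of a group agreed within sampling noise. Levels are given as CPM, the counts of a gene per 1000000 counts of the TMM-scaled library. The 3 transcripts that mark the sorted surface, Ly6a (which encodes Sca-1), Ly6c1 and Ly6c2, summed to 32.8 ± 3.16 CPM in TGFb1 + TNF, 111 ± 12.9 in TGFb1 and 192 ± 6.51 in DMSO (mean ± SD, n = 3 libraries each). The immune list summed to 2.96, 4.33 and 3.72 CPM in the same order, with Ptprc, Adgre1 and Cd3e at 0 in all 9 libraries, and the epithelial list stayed at or under 0.883 CPM in every library. The endothelial list summed to 14.2 CPM in TGFb1 + TNF, 5.51 in TGFb1 and 9.72 in DMSO, with Cldn5 at 0 in all 9 libraries. Its members moved unequally. Cdh5, VE-cadherin, was at 4.54 CPM in TGFb1 + TNF, 0.265 in TGFb1 and 0.0336 in DMSO, and Kdr, a VEGF receptor, at 6.32, 3.18 and 1.60 CPM in the same order. Tek, the angiopoietin receptor, was at 1.33, 0.946 and 6.71 CPM, Vwf at 1.81, 0.527 and 1.18 CPM and Pecam1 at 0.160, 0.547 and 0.0606 CPM, and the part of such cells in the results was not tested. The mural list summed to 289 CPM in TGFb1 + TNF, 175 in TGFb1 and 76.6 in DMSO. Cspg4, a proteoglycan that fibroblasts can also express, made up 273, 113 and 7.48 CPM of these sums. The other members had lower means in TGFb1 + TNF than in DMSO. Notch3 was at 9.40 against 59.7 CPM, Mcam at 6.41 against 7.33, Rgs5 at 0.238 against 1.09 and Myh11 at 0.133 against 0.846. Kcnj8 and Abcc9 were at 0 in TGFb1 + TNF. The mesothelial list, nearly all Wt1, summed to 16.8, 30.1 and 14.4 CPM in the same order, with Lrrn4 at 0 throughout. In bulk RNA, fewer cells of a type and less RNA per cell cannot be told apart.

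The cells did not return to baseline as a whole. Of 16197 genes tested with edgeR's quasi-likelihood test (Benjamini-Hochberg adjusted p below 0.05), 11914 differed between TGFb1 + TNF and DMSO (73.6%), 5834 of them higher (36.0%) and 6080 lower (37.5%) after both cytokines. At least 2-fold, 2322 genes were higher (14.3%) and 3361 lower (20.8%). For 12038 genes (74.3%) the 3 libraries of 1 group all lay on 1 side of the 3 of the other. TGFb1 alone differed from DMSO in 10292 genes (63.5%), and TGFb1 + TNF differed from TGFb1 in 9161 (56.6%). These 3 comparisons share libraries, so how a gene falls among them is a description and no test was made of it. TGFb1 and DMSO also differ in solvent by their labels. What is called raised or lowered by TGFb1 below therefore includes any effect of the solvent. Between TGFb1 + DMSO and TGFb1, 993 of the 16197 genes were called.

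Genes that TGFb1 moved by at least 2-fold were sorted by where TGFb1 + TNF left them. The 3 groups are separate libraries and the labels give no times. Words such as back, kept and overshot therefore compare groups and describe no course in time. Of 1520 genes raised by TGFb1, 54 (3.55%) were back at baseline, meaning that TGFb1 + TNF was lower than TGFb1 and that the 95% interval of the net change lay within 1.5-fold of DMSO either way. Another 41 (2.70%) overshot, ending at least 1.5-fold below DMSO and past the threshold. In contrast, 328 (21.6%) came partly back, 408 (26.8%) were kept, 546 (35.9%) went further up and 143 (9.41%) could not be resolved. Of 2301 genes lowered by TGFb1, 36 (1.56%) were back at baseline, 28 (1.22%) overshot above it and 194 (8.43%) came partly back. Another 1000 (43.5%) were kept, 830 (36.1%) went further down and 213 (9.26%) were unresolved. The unresolved count became 320, 304 and 314 without TGFb1 + TNF replicate 1, 2 and 3 in turn. New changes, in genes whose TGFb1 change had a 95% interval within 1.5-fold of DMSO, numbered 259 higher (1.60% of the genes tested) and 237 lower (1.46%) by at least 2-fold. The raised genes that went further had a median log2 fold change against DMSO of 2.73 after both cytokines and 1.63 after TGFb1, and the lowered genes that went further had medians of -3.25 and -1.74. The plot of net change by TGFb1 change shows the classes as regions.

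**Figure D1:**
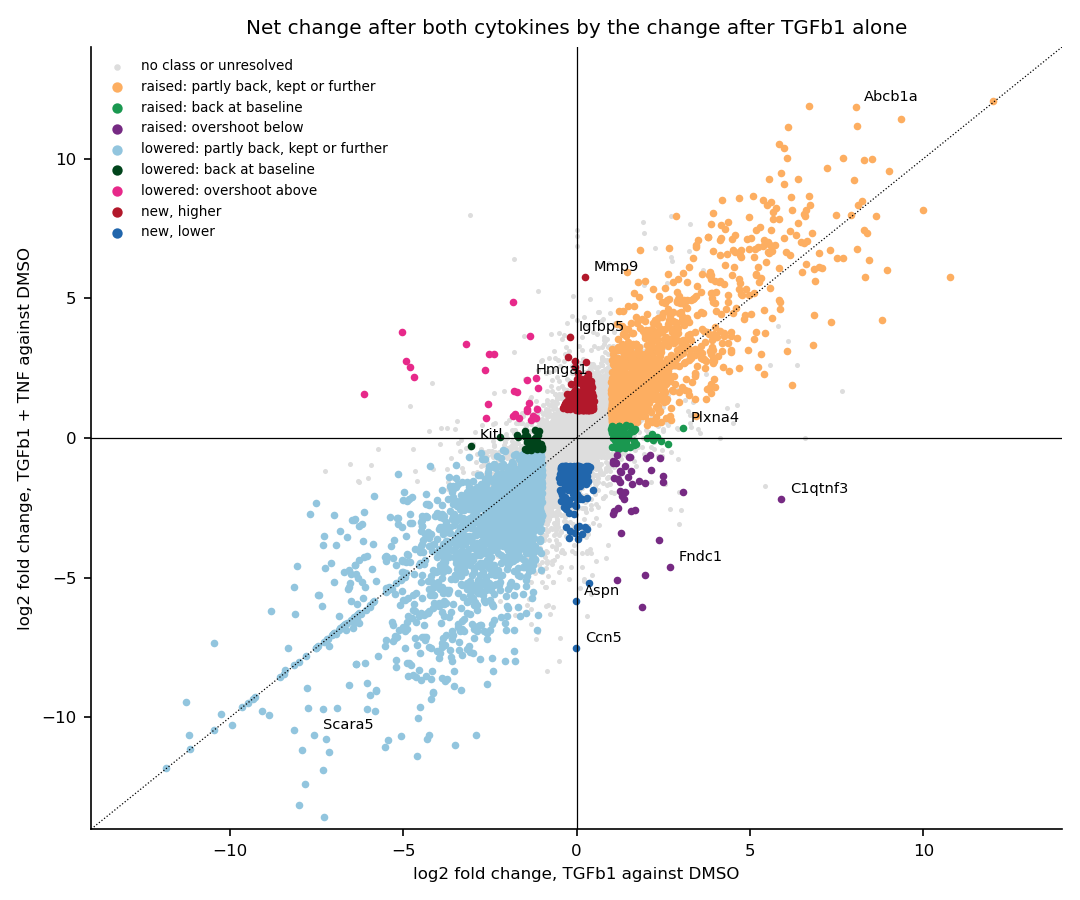
Each point is 1 gene tested, with its log2 fold change in TGFb1 against DMSO on the horizontal axis and in TGFb1 + TNF against DMSO on the vertical axis, and the dotted line marks equal changes. Green points near the horizontal line at 0 were back at baseline, purple and pink points lie across it, and red and blue points along the vertical line at 0 are the 259 new higher and 237 new lower genes.

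Among genes raised by TGFb1 and back at baseline were extracellular and contractile genes. Crispld2, a secreted protein with an LCCL domain (chromosome 8, 119992438 to 120052793, GRCm38), stood at 89.6, 91.5 and 91.5 CPM in the TGFb1 + TNF libraries, against 432, 445 and 442 in TGFb1 and 94.3, 94.1 and 96.7 in DMSO. Its TGFb1 + TNF and DMSO libraries were adjacent without overlap, and the net difference did not pass the test (log2 fold change -0.06 ± 0.042, adjusted p = 0.158). Here and below, the value after ± beside a log2 fold change is its standard error from the fit. A solvent-matched net change was also computed, as the change of TGFb1 + TNF against TGFb1 plus that of TGFb1 + DMSO against DMSO, and on it Crispld2 passed as lower, at -0.16 (adjusted p = 0.0114). Plxna4, a semaphorin receptor, had 53.3, 49.7 and 56.4 CPM in TGFb1 + TNF, 337, 352 and 359 in TGFb1 and 41.4, 39.8 and 44.4 in DMSO. Its return was short of complete: all 3 TGFb1 + TNF libraries lay above the 3 DMSO libraries (log2 fold change 0.35 ± 0.059, adjusted p = 9.44e-07). Angpt4, an angiopoietin, had a net log2 fold change of -0.20 ± 0.12 (adjusted p = 0.129) after a TGFb1 change of 2.63, and Fzd6, a Wnt receptor, one of -0.11 ± 0.095 (adjusted p = 0.29) after 2.44. Angpt4 became lower at the threshold without TGFb1 + TNF replicate 1 (-0.31) or DMSO replicate 1 (-0.36), and was at -0.66 with the solvent matched (adjusted p = 0.000163).

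The same class held 3 of 24 contractile genes and 2 of 16 fibrillar and partner collagens, among them Col1a1 and Acta2, beside 54 of all 16197 genes tested. Col1a1, the main chain of type I collagen (chromosome 11, 94936224 to 94953042), had 11454, 10867 and 11573 CPM in the TGFb1 + TNF libraries, against 27124, 27280.0 and 28760.0 in TGFb1 and 12399, 12665 and 12618 in DMSO. The TGFb1 + TNF libraries were all just below the DMSO libraries, a net log2 fold change of -0.15 ± 0.037 that passed the test (adjusted p = 0.000284) and lay within the 1.5-fold margin. Acta2, the smooth muscle actin, had 818, 940.3 and 946 CPM in TGFb1 + TNF, 2384, 2355 and 2438 in TGFb1 and 1155, 1084 and 1102 in DMSO, again below DMSO in all 3 libraries. Acta2 had a net log2 fold change of -0.31 ± 0.049 (adjusted p = 1.17e-06). Cnn1, a calponin of contracting cells, had 45.5, 54.7 and 54.4 CPM in the TGFb1 + TNF libraries, against 211, 212 and 205 in TGFb1 and 50.5, 47.4 and 41.96 in DMSO, and its groups overlapped. Against DMSO, Cnn1 was at 0.14 ± 0.070 on the log2 scale (adjusted p = 0.0678). With the solvent matched as above, Cnn1 turned negative, at -0.42 (adjusted p = 0.000248), and it passed the test as higher at 0.23 without TGFb1 + TNF replicate 1 and at 0.20 without DMSO replicate 1. Tagln, Col5a2, Tgfb2, Tgfb3, the BMP-binding protein gene Bmper, the sterol enzyme gene Mvd and the collagen crosslinker gene Lox were the other members of the gene lists back at baseline from above, picked here by their class, with net log2 fold changes from -0.38 (Tgfb2) to 0.42 (Col5a2).

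**Figure D2:**
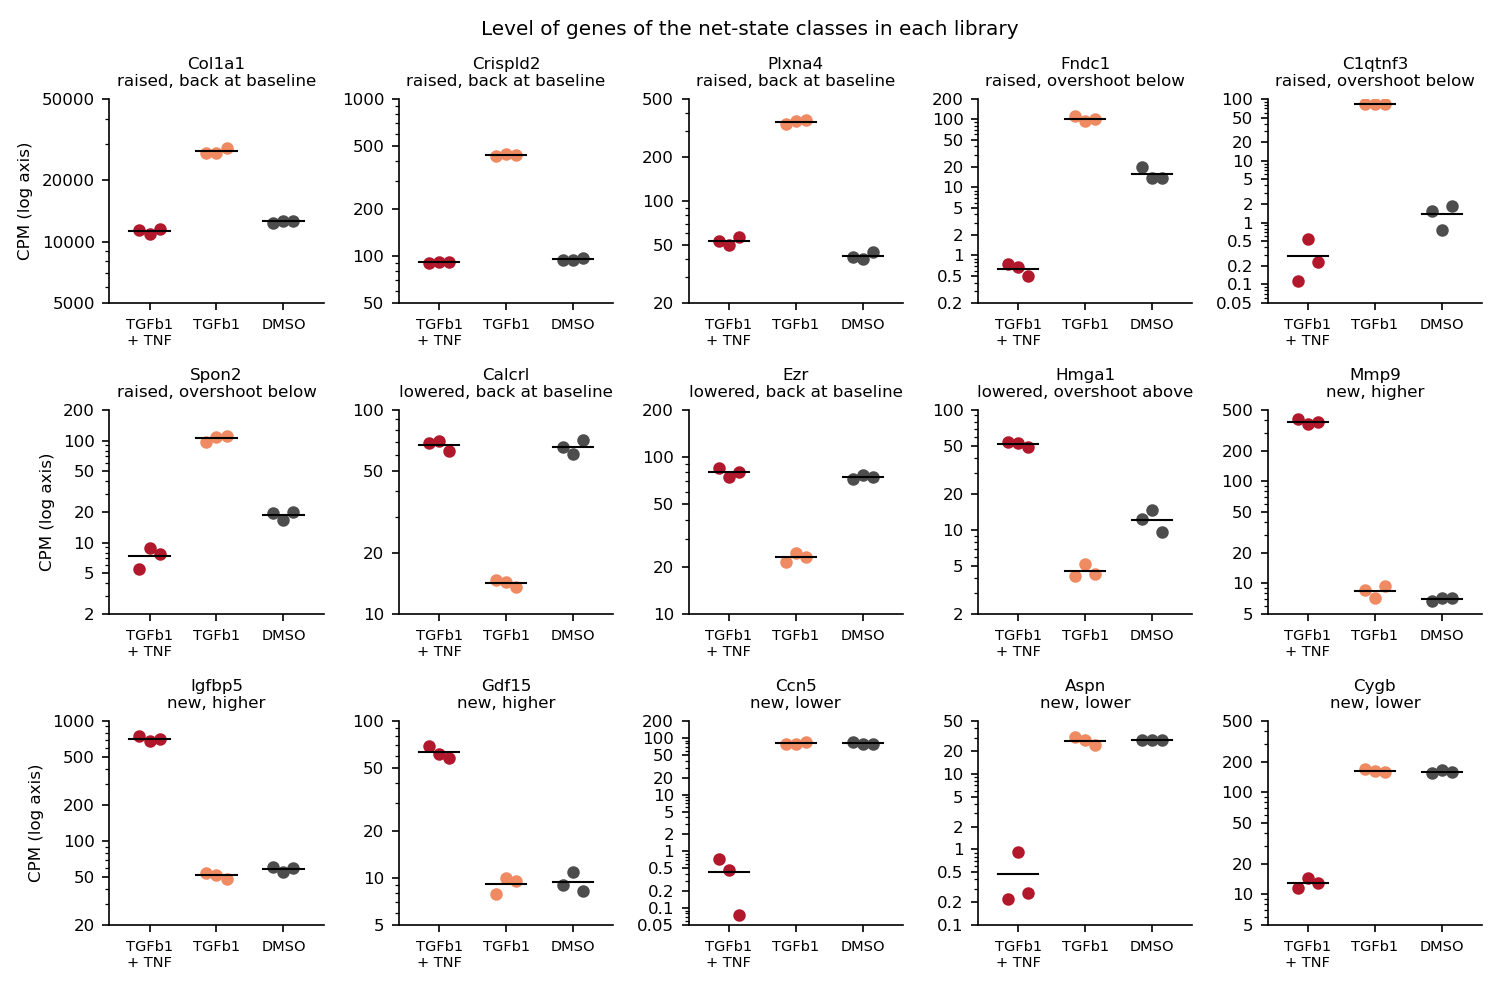
Each point is 1 library and each line the mean of 3, in CPM on a log axis, with TGFb1 + TNF, TGFb1 and DMSO from left to right in each panel. Crispld2 and Calcrl meet the DMSO level from above and below, Fndc1 and Spon2 end under it, and Mmp9 and Ccn5 differ from both other groups.

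Overshoot below baseline took in several matrix genes. C1qtnf3, a secreted C1q and TNF related protein (chromosome 15, 10952332 to 10980150), had 0.112, 0.534 and 0.228 CPM in TGFb1 + TNF, 83.2, 82.9 and 82.02 in TGFb1 and 1.56, 0.772 and 1.86 in DMSO. TGFb1 lay above DMSO, and all 3 TGFb1 + TNF libraries lay below the lowest DMSO library (log2 fold change -2.20 ± 0.40, adjusted p = 1.9e-05). Fndc1, a fibronectin type III domain protein (chromosome 17, 7738569 to 7827302), had 0.744, 0.676 and 0.494 CPM in the TGFb1 + TNF libraries, against 110.4, 94.7 and 101 in TGFb1 and 19.6, 13.7 and 13.9 in DMSO. For Fndc1, the net log2 fold change was -4.62 ± 0.24 (adjusted p = 1.84e-12). Spon2, a matrix protein of the spondin family, had 5.50, 8.93 and 7.68 CPM in TGFb1 + TNF, 96.9, 108 and 111 in TGFb1 and 19.7, 16.8 and 20.1 in DMSO, with no overlap between any of the 3 groups. Spon2 had a net log2 fold change of -1.35 ± 0.11 (adjusted p = 1.73e-14). Kif26b, a kinesin family member, reached -0.71 ± 0.050 and Medag, an adipogenesis-linked gene, -1.14 ± 0.10 on the log2 scale. Of the matrix lists, the fibril collagens Col11a1 (-1.53 ± 0.063) and Col12a1 (-1.43 ± 0.040), elastin (Eln, -1.95 ± 0.14), and the elastic fibre genes Mfap4 (-3.66 ± 0.30), Emilin1 (-0.86 ± 0.050) and Fbn2 (-0.67 ± 0.12) overshot too. Tgfbi, a collagen-binding TGFb target, Cilp, a cartilage matrix protein gene, Adamts12, a matrix protease, and Nkd2, a Wnt feedback gene, were the remaining list members in the class, at -0.68, -1.91, -0.88 and -2.49. All 10 of these list members were picked by their class, whose rule itself requires a level below DMSO past the threshold.

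Genes lowered by TGFb1 that were back at baseline included receptors and a chemokine. Calcrl, the receptor for adrenomedullin and CGRP (chromosome 2, 84330626 to 84425411), had 69.1, 70.6 and 63.2 CPM in the TGFb1 + TNF libraries, against 14.6, 14.3 and 13.5 in TGFb1 and 65.7, 60.7 and 71.6 in DMSO, with overlap between TGFb1 + TNF and DMSO. Against DMSO, Calcrl was at 0.04 ± 0.074 on the log2 scale (adjusted p = 0.673). Ezr, a linker of membrane and actin, had 85.3, 74.9 and 80.9 CPM in TGFb1 + TNF, 21.4, 24.4 and 23.1 in TGFb1 and 72.5, 77.4 and 74.9 in DMSO. For Ezr, the net log2 fold change was 0.10 ± 0.065 (adjusted p = 0.156). With the solvent matched, both ended above DMSO, Calcrl at 0.43 (adjusted p = 0.002) and Ezr at 0.41 (adjusted p = 0.000296). Kitl, the ligand of the KIT receptor, had 16.1, 17.1 and 16.3 CPM in the TGFb1 + TNF libraries, against 1.96, 3.14 and 2.01 in TGFb1 and 16.1, 21.6 and 22.1 in DMSO. Its net change of -0.27 ± 0.11 passed the test by little (adjusted p = 0.0331) and missed it without TGFb1 + TNF replicate 1 (-0.25, adjusted p = 0.0825), without TGFb1 + TNF replicate 3 (0.0781), without DMSO replicate 2 (0.159) or 3 (0.24) and with the solvent matched (-0.13, adjusted p = 0.635). Tdrkh, a piRNA pathway protein gene, was at 0.04 ± 0.20 (adjusted p = 0.874). Cxcl16, a membrane-bound chemokine, was at 0.25 ± 0.093 (adjusted p = 0.0149), a call lost without TGFb1 + TNF replicate 3 (0.0594), DMSO replicate 2 (0.125) or DMSO replicate 3 (0.0561), and reversed to -0.06 with the solvent matched (adjusted p = 0.771).

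Overshoot above baseline was seen for a chromatin protein and for surface proteins. Hmga1, an architectural DNA-binding protein (chromosome 17, 27556497 to 27563674), had 54.2, 52.5 and 49.3 CPM in TGFb1 + TNF, 4.11, 5.21 and 4.28 in TGFb1 and 12.4, 14.7 and 9.65 in DMSO, so that TGFb1 and TGFb1 + TNF lay on opposite sides of all DMSO libraries. Hmga1 had a net log2 fold change of 2.08 ± 0.12 (adjusted p = 5.35e-22). Cxadr, a junction protein and virus receptor, had 28.8, 26.2 and 24.5 CPM in the TGFb1 + TNF libraries, against 1.88, 2.46 and 2.83 in TGFb1 and 9.08, 8.83 and 6.97 in DMSO. Against DMSO, Cxadr was at 1.67 ± 0.13 on the log2 scale (adjusted p = 5.34e-17). Cd34, a sialomucin of stem cells, endothelium and adventitial fibroblasts, was at 0.88 ± 0.10, Epha2, an ephrin receptor, at 0.71 ± 0.083 and Smox, a spermine oxidase, at 0.98 ± 0.11. The gene lists held 3 more members of this class, picked by their class: Serpinb2, a plasminogen activator inhibitor, at 4.87 ± 0.24, Traf1, an adaptor of TNF receptors, at 2.53 ± 0.48, and Adamts8, a protease with 0 counts in all 3 TGFb1 libraries, at 2.74 ± 0.80.

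New higher genes were led by a protease, with TGFb1 alone near baseline. Mmp9, gelatinase B (chromosome 2, 164940780 to 164955850), had 409, 361 and 379 CPM in TGFb1 + TNF, 8.57, 7.10 and 9.48 in TGFb1 and 6.67, 7.15 and 7.22 in DMSO. The TGFb1 and DMSO libraries overlapped and all TGFb1 + TNF libraries were far above both (log2 fold change 5.77 ± 0.085, adjusted p = 3.21e-45). Igfbp5, a binding protein of insulin-like growth factors (chromosome 1, 72857932 to 72874884), had 749, 680.1 and 711 CPM in the TGFb1 + TNF libraries, against 54.6, 52.04 and 48.5 in TGFb1 and 61.1, 55.5 and 59.2 in DMSO. For Igfbp5, the net log2 fold change was 3.61 ± 0.12 (adjusted p = 6.9e-14). Itga6, the laminin receptor subunit, had 63.4, 58.02 and 55.4 CPM in TGFb1 + TNF, 6.38, 7.32 and 6.18 in TGFb1 and 5.99, 9.30 and 8.63 in DMSO. Itga6 had a net log2 fold change of 2.89 ± 0.12 (adjusted p = 3.72e-27). Gdf15, a stress-induced cytokine of the TGFb family, reached 2.75 ± 0.16 and Stard5, a lipid transfer protein, 2.74 ± 0.072, both with adjusted p at or below 8.16e-13. The list members Atf6, a sensor of unfolded protein (2.22 ± 0.055), Relb, an NF-kB subunit (1.98 ± 0.079), Ddit3, a stress transcription factor (1.56 ± 0.086), and Nfkbie, an inhibitor of NF-kB (1.26 ± 0.087), were also new and higher.

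New lower genes were below DMSO after both cytokines, whereas TGFb1 alone left them within 1.5-fold of it. Ccn5, a matricellular protein that lacks the C-terminal domain of its family (chromosome 2, 163820861 to 163833146), had 0.744, 0.462 and 0.0761 CPM in the TGFb1 + TNF libraries, against 77.8, 77.6 and 84.5 in TGFb1 and 83.8, 79.6 and 76.8 in DMSO. Against DMSO, Ccn5 was at -7.52 ± 0.14 on the log2 scale (adjusted p = 2.12e-39). Aspn, asporin, a small leucine-rich proteoglycan (chromosome 13, 49544443 to 49567565), had 0.223, 0.925 and 0.266 CPM in TGFb1 + TNF, 30.7, 27.7 and 23.96 in TGFb1 and 27.6, 28.1 and 27.8 in DMSO. For Aspn, the net log2 fold change was -5.85 ± 0.23 (adjusted p = 5.09e-17). For both genes the TGFb1 and DMSO libraries overlapped and the TGFb1 + TNF libraries lay under 1 CPM. Serpinb1a, an inhibitor of neutrophil proteases, had 1.12, 0.925 and 1.94 CPM in the TGFb1 + TNF libraries, against 72.3, 59.2 and 55.9 in TGFb1 and 50.4, 46.6 and 49.2 in DMSO. Its TGFb1 libraries all lay above its DMSO libraries. Serpinb1a had a net log2 fold change of -5.20 ± 0.13 (adjusted p = 5.31e-31). Cygb, cytoglobin, an oxygen-binding globin of fibroblasts, was at -3.62 ± 0.062 and Arhgef28, an activator of RHOA, at -3.58 ± 0.15. Myl9, the regulatory myosin light chain (-3.18 ± 0.069), Pparg, the adipogenic nuclear receptor (-1.84 ± 0.12), and Pcolce, an enhancer of procollagen cleavage (-1.84 ± 0.039), were list members in the class.

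Most TGFb1-raised genes stayed high or went higher. Abcb1a, a drug efflux pump, had 248, 229.6 and 238 CPM in TGFb1 + TNF, 14.2, 18.6 and 18.4 in TGFb1 and 0.0340, 0.0672 and 0.0811 in DMSO. Against DMSO, Abcb1a was at 11.85 ± 0.16 on the log2 scale (adjusted p = 1.28e-48). Acsbg1, an acyl-CoA synthetase, had 176, 166 and 169.6 CPM in the TGFb1 + TNF libraries, against 48.9, 57.7 and 54.3 in TGFb1 and 0.340, 0.134 and 0 in DMSO. For Acsbg1, the net log2 fold change was 9.96 ± 0.18 (adjusted p = 6.34e-30). Tnnt2, a troponin of cardiac muscle, had 156, 138 and 137 CPM in TGFb1 + TNF, 10.4, 10.2 and 11.8 in TGFb1 and 0.102, 0.369 and 0.203 in DMSO. Tnnt2 had a net log2 fold change of 9.28 ± 0.16 (adjusted p = 5.09e-45). These 3 were near 0 in DMSO and highest after both cytokines. Prss46, a serine protease, had 20.6, 20.1 and 21.6 CPM in the TGFb1 + TNF libraries, against 23.2, 18.5 and 18.4 in TGFb1 and 0 in each in DMSO, so the net change is given as a bound, at least 580-fold higher against 3 counts over the DMSO group. Ctsw, cathepsin W, had 3332 counts over the TGFb1 + TNF libraries and 3 over the DMSO libraries, a ratio of 1146 with a counting interval of 392 to 5558. Fgf21, a metabolic hormone, Tfpi2, a protease inhibitor, Pdgfb, a mitogen of mural cells, and Anxa8, an annexin, were also among the 10 largest net rises, at 8.52 ± 0.18, 8.36 ± 0.24, 8.17 ± 0.15 and 8.17 ± 0.30. Anxa8 had come partly back, at 18.6 ± 3.40 CPM in TGFb1 + TNF, 65.6 ± 2.65 in TGFb1 and 0.0560 ± 0.0969 in DMSO (mean ± SD, n = 3), as had Gpr35, an orphan receptor (6.46 ± 0.24), Lrrc15, a surface protein of activated fibroblasts (4.17 ± 0.26), Adgra1, an adhesion receptor (6.12 ± 0.30), and Stra6, a vitamin A transporter (4.41 ± 0.24).

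The 10 largest net falls among genes above the level limit for naming were in genes that TGFb1 had already lowered. Sfrp2, a Wnt antagonist, had 0.0744, 0.107 and 0 CPM in TGFb1 + TNF, 1.23, 0.607 and 0.412 in TGFb1 and 115, 119.6 and 117 in DMSO. Against DMSO, Sfrp2 was at -10.79 ± 0.23 on the log2 scale (adjusted p = 1.36e-27). Scara5, a ferritin receptor, had 0.149, 0.178 and 0.190 CPM in the TGFb1 + TNF libraries, against 0.730, 1.53 and 2.37 in TGFb1 and 284, 271 and 283 in DMSO. For Scara5, the net log2 fold change was -10.62 ± 0.16 (adjusted p = 1.67e-34). Adamts15, a versican-cleaving protease, had 0.0744, 0 and 0.0761 CPM in TGFb1 + TNF, 3.92, 1.61 and 2.32 in TGFb1 and 91.9, 83.03 and 89.1 in DMSO. Adamts15 had a net log2 fold change of -10.67 ± 0.23 (adjusted p = 3.26e-26). All 3 were already low after TGFb1 and lower still in every library after both cytokines. Abi3bp, a matrix protein, and Agt, angiotensinogen, were at -10.44 ± 0.19 and -9.79 ± 0.18, and Pamr1, Tnxb, Grb14, Fbln7 and Akr1c14 made up the 10 largest net falls, from -9.01 to -8.09. Tnxb is tenascin-X, Grb14 an adaptor that dampens insulin receptor signalling, Fbln7 a fibulin and Akr1c14 a steroid reductase. Partial return was seen for Abca8a, a lipid transporter (-5.32 ± 0.17), Aox3, an aldehyde oxidase (-4.27 ± 0.13), Nckap5 (-4.25 ± 0.17), Nr1h4, the bile acid receptor (-2.82 ± 0.15), and Cxcl1, described with the chemokines.

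The 30 gene lists are described by how many members were higher or lower in TGFb1 + TNF than in DMSO, beside 36.0% and 37.5% of all genes tested and an all-gene median log2 fold change of -0.03. A list's share says nothing particular to that list beyond these counts.

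**Figure D3:**
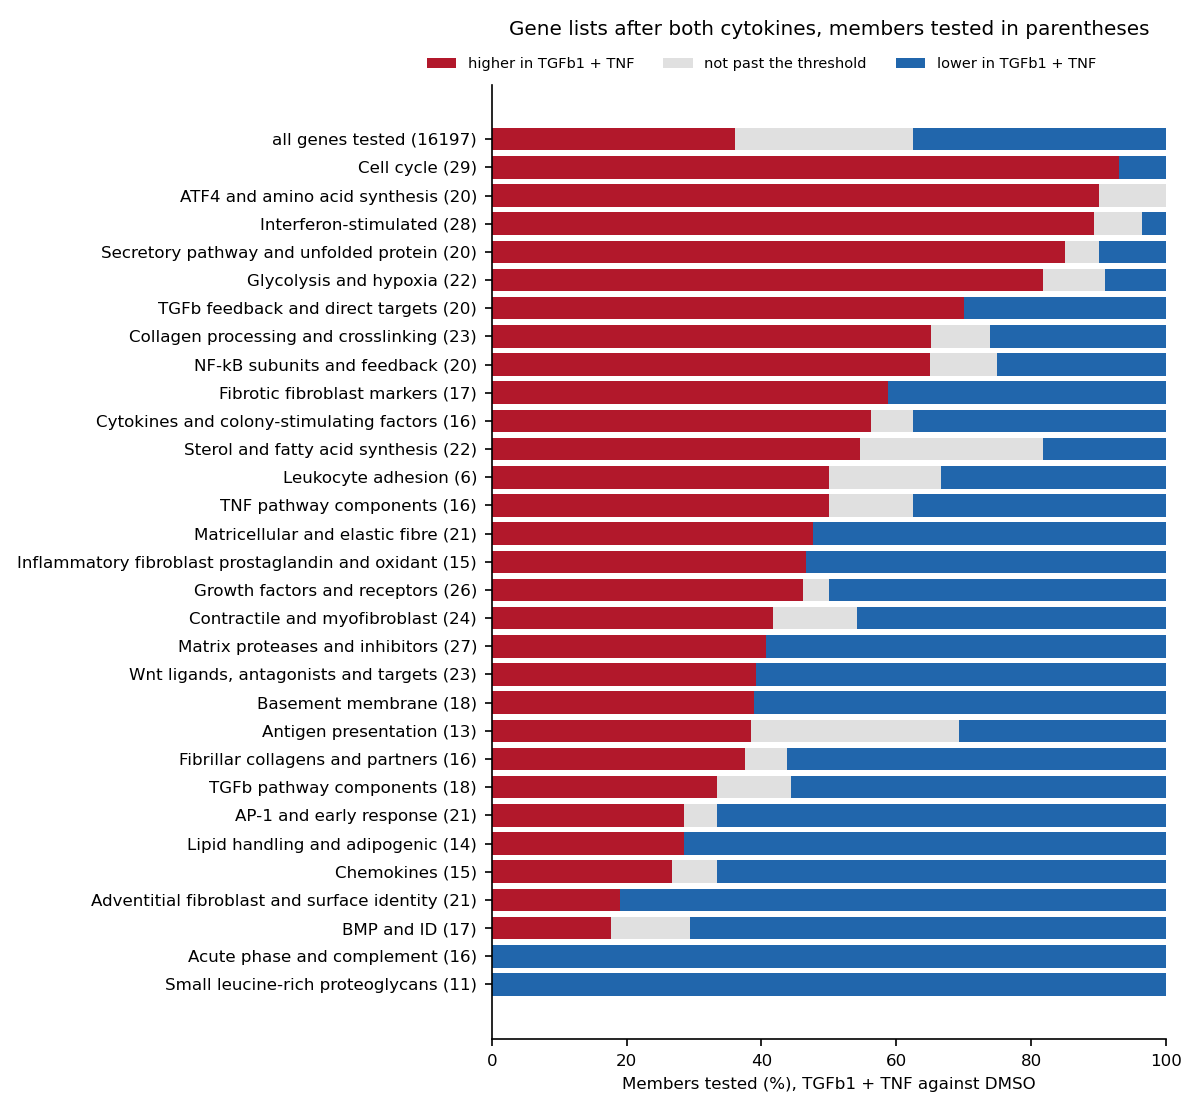
Each bar is 1 gene list, with the share of its members tested that were higher (red), not past the threshold (grey) or lower (blue) in TGFb1 + TNF than in DMSO, and the number of members tested in parentheses. The top bar gives all genes tested, and the lists run from cell cycle, with 27 of 29 higher, to the small leucine-rich proteoglycans, with 11 of 11 lower.

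TGFb ligands and receptors did not move as 1 block. Of 18 pathway components tested, 6 were higher and 10 lower (median -0.30). Among ligands, Inhba, a subunit of activin A, had 1449, 1357 and 1319 CPM in the TGFb1 + TNF libraries, against 357, 379 and 369 in TGFb1 and 53.1, 62.2 and 62.1 in DMSO. Against DMSO, Inhba was at 4.54 ± 0.059 on the log2 scale (adjusted p = 2.2e-39). The Tgfb1 transcript itself rose to 321 ± 5.05 CPM in TGFb1 + TNF, against 219 ± 7.30 in TGFb1 and 73.6 ± 2.25 in DMSO (log2 fold change 2.13 ± 0.048, adjusted p = 1.98e-39). Inhbb, a subunit of activin B, fell (-3.98 ± 0.10), as did Tgfbr3, the coreceptor betaglycan (-4.18 ± 0.070). Tgfbr2, the type II receptor that binds the ligand, was chosen after its values were seen: it had 102, 96.9 and 103 CPM in TGFb1 + TNF, 504, 496 and 521 in TGFb1 and 363, 360.1 and 372 in DMSO and belonged to the new lower genes. For Tgfbr2, the net log2 fold change was -1.86 ± 0.043 (adjusted p = 6.97e-39). Of 20 feedback and direct target genes, 14 were higher and 6 lower (median 1.31). Il11, a cytokine of fibrosis, had 22.98, 22.1 and 20.4 CPM in the TGFb1 + TNF libraries, against 7.61, 5.92 and 7.01 in TGFb1 and 0.102, 0.0672 and 0.324 in DMSO. Il11 had a net log2 fold change of 7.09 ± 0.26 (adjusted p = 1.68e-29). Ccn2, connective tissue growth factor, had 1067, 1226 and 1179 CPM in TGFb1 + TNF, 1451, 1594 and 1566 in TGFb1 and 84.5, 101 and 96.96 in DMSO. After both cytokines Ccn2 was below TGFb1 and above DMSO (log2 fold change against DMSO 3.62 ± 0.068, adjusted p = 1.34e-23). Skil, a SMAD inhibitor, and Sphk1, a sphingosine kinase, were at 3.28 ± 0.053 and 3.44 ± 0.13.

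Collagens divided by chain. Of 16 fibrillar and partner collagens, 6 were higher and 9 lower (median -0.38, against 1.11 in TGFb1). Col5a3, a type V chain, had 1644, 1599.8 and 1659 CPM in the TGFb1 + TNF libraries, against 494, 527 and 531 in TGFb1 and 51.8, 51.7 and 55.6 in DMSO. For Col5a3, the net log2 fold change was 4.95 ± 0.050 (adjusted p = 1.25e-54). Col8a1, a network collagen, was at 3.56 ± 0.062. Col6a2, a microfibril chain, had 45.7, 43.9 and 48.8 CPM in TGFb1 + TNF, 168, 147 and 145 in TGFb1 and 687, 651 and 649 in DMSO. Col6a2 had a net log2 fold change of -3.84 ± 0.055 (adjusted p = 1.47e-45). Col14a1, a fibril-associated collagen, was at -3.46 ± 0.053. Col3a1, picked after its values were seen because it partners Col1a1 in fibrils, had 4208, 4211 and 4302 CPM in the TGFb1 + TNF libraries, against 16942, 16084 and 16426 in TGFb1 and 9389.5, 8982 and 9075 in DMSO, ending below DMSO in every library. Against DMSO, Col3a1 was at -1.11 ± 0.037 on the log2 scale (adjusted p = 1.97e-31). Basement membrane genes were higher in 7 and lower in 11 of 18 (median -1.04), with nidogen 2 (Nid2, -5.47 ± 0.14), the laminin chains Lama5 (-2.57 ± 0.093) and Lama2 (-2.43 ± 0.13), and Col4a5 (-1.96 ± 0.047) all below DMSO.

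Small leucine-rich proteoglycans, which bind collagen and set fibril width, were lower in 11 of 11 (median -6.10, or -5.85 with Kera, which had 0 counts in TGFb1 + TNF, at its bound). Ogn, osteoglycin, had 7.62, 7.58 and 7.23 CPM in TGFb1 + TNF, 74.2, 91.4 and 98.4 in TGFb1 and 838, 938 and 942 in DMSO. For Ogn, the net log2 fold change was -6.92 ± 0.099 (adjusted p = 2.46e-25). Prelp had 9.22, 9.21 and 11.9 CPM in the TGFb1 + TNF libraries, against 104, 96.7 and 107 in TGFb1 and 1060.5, 1114 and 1096 in DMSO. Prelp had a net log2 fold change of -6.76 ± 0.067 (adjusted p = 3.28e-52). Fmod, fibromodulin, had 5.32, 4.45 and 3.54 CPM in TGFb1 + TNF, 135, 117 and 119 in TGFb1 and 354, 340.5 and 328 in DMSO. Against DMSO, Fmod was at -6.26 ± 0.079 on the log2 scale (adjusted p = 6.62e-48). Podn, podocan, was at -6.10 ± 0.18. Decorin (Dcn) and biglycan (Bgn) were chosen after their values were seen. Dcn came partly back, at -1.92 against DMSO after both cytokines and -3.16 after TGFb1, and Bgn lay -0.13 from DMSO.

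Matricellular and elastic fibre genes were higher in 10 and lower in 11 of 21 (median -0.13). Spp1, osteopontin, had 10513, 9678 and 9177 CPM in the TGFb1 + TNF libraries, against 2605, 2126 and 2082 in TGFb1 and 156, 158 and 162 in DMSO. For Spp1, the net log2 fold change was 5.95 ± 0.11 (adjusted p = 3.25e-17). Tnc, tenascin-C, had 7776, 6573 and 6933 CPM in TGFb1 + TNF, 2308, 2019.9 and 2046 in TGFb1 and 548, 557 and 528 in DMSO. Tnc had a net log2 fold change of 3.70 ± 0.084 (adjusted p = 1.37e-16). Both were highest after both cytokines, whereas Thbs1, an activator of latent TGFb, was lowest there (-2.86 ± 0.043). Fn1, fibronectin, overlapped between TGFb1 + TNF and TGFb1 and was above DMSO (log2 fold change 0.89 ± 0.037, adjusted p = 4.43e-27). Of 17 markers of fibrotic fibroblasts, 10 were higher and 7 lower (median 1.03). Cthrc1, a collagen triple helix repeat protein of fibrotic lungs, had 13.02, 15.3 and 14.4 CPM in the TGFb1 + TNF libraries, against 46.2, 42.9 and 45.5 in TGFb1 and 4.08, 6.95 and 6.24 in DMSO. Against DMSO, Cthrc1 was at 1.31 ± 0.11 on the log2 scale (adjusted p = 1.52e-14). Postn, periostin, had 3393, 3681 and 3622 CPM in TGFb1 + TNF, 6178, 5758 and 5543 in TGFb1 and 2505, 2423 and 2398 in DMSO. For Postn, the net log2 fold change was 0.55 ± 0.035 (adjusted p = 8.66e-20). Both had come partly back.

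**Figure D4:**
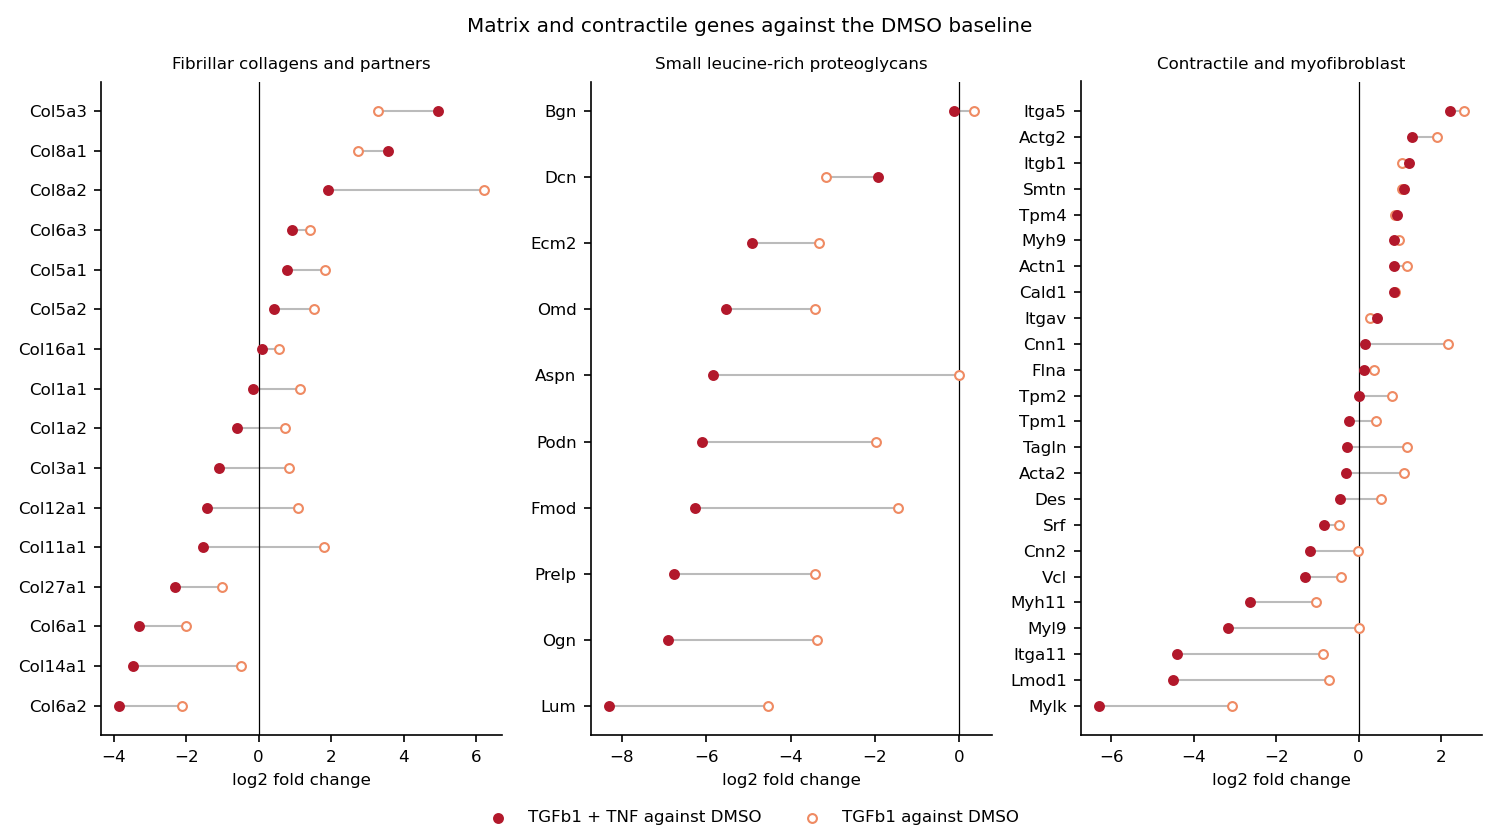
Each row is 1 gene, with its log2 fold change against DMSO after TGFb1 + TNF (filled) and after TGFb1 (open), for 3 gene lists; members with 0 counts in a whole group are left out. Col1a1 and Acta2 lie near 0 after both cytokines. The proteoglycans lie below 0, Bgn only slightly. Mylk and Myl9 lie below 0 while Itga5 lies above it.

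Enzymes that process and crosslink collagen were higher in 15 and lower in 6 of 23 (median 0.57). Loxl2, a lysyl oxidase (1.89 ± 0.038), and P4ha2, a prolyl hydroxylase (1.81 ± 0.044), remained above DMSO, and Adamts2, which trims procollagen ends, fell to 127 ± 5.10 CPM in TGFb1 + TNF, against 325 ± 9.40 in TGFb1 and 1189 ± 26.1 in DMSO (log2 fold change -3.23 ± 0.041, adjusted p = 2.48e-50). Matrix proteases and their inhibitors were higher in 11 and lower in 16 of 27 (median -0.88). Besides Mmp9, the collagenase gene Mmp13 was higher, with 55.4, 44.1 and 40.5 CPM in the TGFb1 + TNF libraries, against 51.1, 45.6 and 40.4 in TGFb1 and 5.85, 6.38 and 6.49 in DMSO, and the TGFb1 + TNF and TGFb1 libraries overlapped. Mmp13 had a net log2 fold change of 2.91 ± 0.15 (adjusted p = 4.2e-11). Mmp3, stromelysin 1, had 19.6, 13.9 and 17.4 CPM in TGFb1 + TNF, 77.2, 69.1 and 61.7 in TGFb1 and 687, 579 and 582 in DMSO, lowest after both cytokines. Against DMSO, Mmp3 was at -5.18 ± 0.14 on the log2 scale (adjusted p = 6.16e-15). The aggrecan-cleaving proteases Adamts5 (-5.42 ± 0.069) and Adamts9 (-5.86 ± 0.085) fell as well.

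Contractile genes were higher in 10, lower in 11 and not past the threshold in 3 of 24. Their median of -0.11 turned to 0.05 with no filter on low counts and to 0.03 without DMSO replicate 3. Mylk, the myosin light chain kinase, had 1.19, 1.78 and 2.17 CPM in the TGFb1 + TNF libraries, against 15.6, 14.3 and 18.1 in TGFb1 and 135, 134 and 134 in DMSO. For Mylk, the net log2 fold change was -6.29 ± 0.17 (adjusted p = 3.71e-17). Lmod1, a leiomodin of smooth muscle (-4.51 ± 0.11), and Itga11, a collagen receptor subunit of myofibroblasts (-4.42 ± 0.056), were also well below DMSO, as was Myl9.

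Inflammatory genes did not rise as a block. Of 15 chemokines tested, 4 were higher and 10 lower (median -1.41). Cxcl10, which draws T cells through CXCR3, had 214, 143 and 142 CPM in TGFb1 + TNF, 37.1, 33.05 and 23.96 in TGFb1 and 2.93, 4.06 and 3.32 in DMSO. Cxcl10 had a net log2 fold change of 5.59 ± 0.24 (adjusted p = 4.04e-12). Ccl5, a T cell and monocyte chemokine, had 31.7, 28.2 and 28.5 CPM in the TGFb1 + TNF libraries, against 2.65, 4.997 and 3.97 in TGFb1 and 1.22, 1.41 and 2.72 in DMSO. Against DMSO, Ccl5 was at 4.07 ± 0.23 on the log2 scale (adjusted p = 5.68e-15). Both were highest after both cytokines. Cxcl1, a neutrophil chemokine, had 7.996, 6.76 and 7.34 CPM in TGFb1 + TNF, 1.31, 0.678 and 0.515 in TGFb1 and 92.98, 82.8 and 80.8 in DMSO, above TGFb1 and far below DMSO. For Cxcl1, the net log2 fold change was -3.54 ± 0.15 (adjusted p = 3.25e-14). Ccl2, a monocyte chemokine, had 133, 122 and 117 CPM in the TGFb1 + TNF libraries, against 43.7, 36.7 and 39.00 in TGFb1 and 196, 189.9 and 196 in DMSO, closer to DMSO and still below it. Ccl2 had a net log2 fold change of -0.64 ± 0.083 (adjusted p = 5.12e-07). Cxcl5, another neutrophil chemokine, had 1 count in all over the TGFb1 + TNF libraries and 1009 over the DMSO libraries, 978-fold lower with a counting interval of 175 to 38676, and Cxcl12, which retains leukocytes through CXCR4, was at -3.36 ± 0.053.

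Cytokines and colony-stimulating factors were higher in 9 and lower in 6 of 16 (median 1.11). Besides Il11, Lif, a ligand of the gp130 receptor, was at 3.37 ± 0.070. Il6, a further gp130 ligand, had 33.4, 40.4 and 32.3 CPM in TGFb1 + TNF, 29.1, 29.2 and 24.6 in TGFb1 and 10.95, 9.84 and 9.08 in DMSO. Against DMSO, Il6 was at 1.82 ± 0.097 on the log2 scale (adjusted p = 2.58e-22). Tnfrsf11b, the decoy receptor osteoprotegerin, was at 1.94 ± 0.10. Il1rn, the IL-1 receptor antagonist, had 26.96, 28.4 and 29.9 CPM in the TGFb1 + TNF libraries, against 206, 164 and 162 in TGFb1 and 270.5, 243 and 263 in DMSO. For Il1rn, the net log2 fold change was -3.19 ± 0.11 (adjusted p = 7.51e-14). Of 16 components of TNF signalling, 8 were higher and 6 lower (median 0.04): Chuk, which encodes IKK alpha, was at 0.88 ± 0.063, Tnfrsf1a, the main TNF receptor, at -0.81 ± 0.043, and the kinase genes Map3k14 and Map3k8 at -0.98 ± 0.069 and -2.82 ± 0.22. Of 20 NF-kB subunits and feedback genes, 13 were higher and 5 lower (median 0.44). Tnfaip3, which encodes the ubiquitin editor A20, had 81.5, 80.5 and 77.8 CPM in TGFb1 + TNF, 31.5, 34.6 and 31.1 in TGFb1 and 18.9, 18.7 and 18.1 in DMSO. Tnfaip3 had a net log2 fold change of 2.10 ± 0.074 (adjusted p = 1.16e-30). Nfkbia, the inhibitor IkB alpha, had 67.3, 55.03 and 57.6 CPM in the TGFb1 + TNF libraries, against 41.5, 40.2 and 35.9 in TGFb1 and 92.2, 94.2 and 86.7 in DMSO, above TGFb1 and below DMSO (log2 fold change -0.60 ± 0.068, adjusted p = 3.27e-11), and Nfkbiz, a nuclear cofactor, was at -1.56 ± 0.083. Medians of the chemokine, cytokine and NF-kB lists kept their value with the 1 member each that had 0 counts in a group set to its bound.

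Promoters of these genes were searched for the kappaB motif, the site that NF-kB dimers bind, on both strands of the 250 bases before the start in RefSeq (GRCm38.p6). Of the 17 members of the chemokine, cytokine and NF-kB lists named by rule, 10 had a promoter there and 6 held a match. All 6 are shown, and they end on both sides of the DMSO baseline. The set was added after values were seen, because the genes first chosen held no match. Those were the 5 genes named as new higher and the 5 named as raised and back at baseline. In each class 3 of the 5 had a promoter, and 0 held a match. Each is printed in the direction of its gene with up to 25 bases on either side of the match, and capitals mark the match.
Il1rn: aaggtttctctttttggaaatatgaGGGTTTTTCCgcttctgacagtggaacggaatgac
Il6: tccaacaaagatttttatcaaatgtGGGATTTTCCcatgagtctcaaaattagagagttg
Cxcl1: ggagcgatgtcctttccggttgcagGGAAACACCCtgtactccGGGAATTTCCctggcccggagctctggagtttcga
Cxcl10: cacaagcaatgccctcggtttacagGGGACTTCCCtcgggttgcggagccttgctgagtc
Tnfaip3: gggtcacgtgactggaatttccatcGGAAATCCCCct
Nfkbia: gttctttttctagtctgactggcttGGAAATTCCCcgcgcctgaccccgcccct
The Il1rn window is chr2:24345295-24345354 (+), that of Il6 chr5:30013045-30013104 (+), that of Cxcl1 chr5:90891131-90891208 (+), that of Cxcl10 chr5:92348958-92349017 (-), that of Tnfaip3 chr10:19015411-19015447 (-) and that of Nfkbia chr12:55492648-55492701 (-). Cxcl1 held 2 matches, 1 on each strand, those of Tnfaip3 and Nfkbia lay on the strand opposite to the gene, and 2 (Tnfaip3) to 93 (Cxcl10) bases lay between the last match and the start. Among the 6, Cxcl10, Tnfaip3 and Il6 were above DMSO after both cytokines and Nfkbia, Il1rn and Cxcl1 below it. A match was held by 926 of 32851 promoters in the table (2.82%) and by 429 of 10822 genes tested that had a promoter there (3.96%). The counts were 15 of 207 for the new higher genes (7.25%) and 3 of 37 for the raised genes back at baseline (8.11%). A match describes the letters only and is not evidence of binding.

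**Figure D5:**
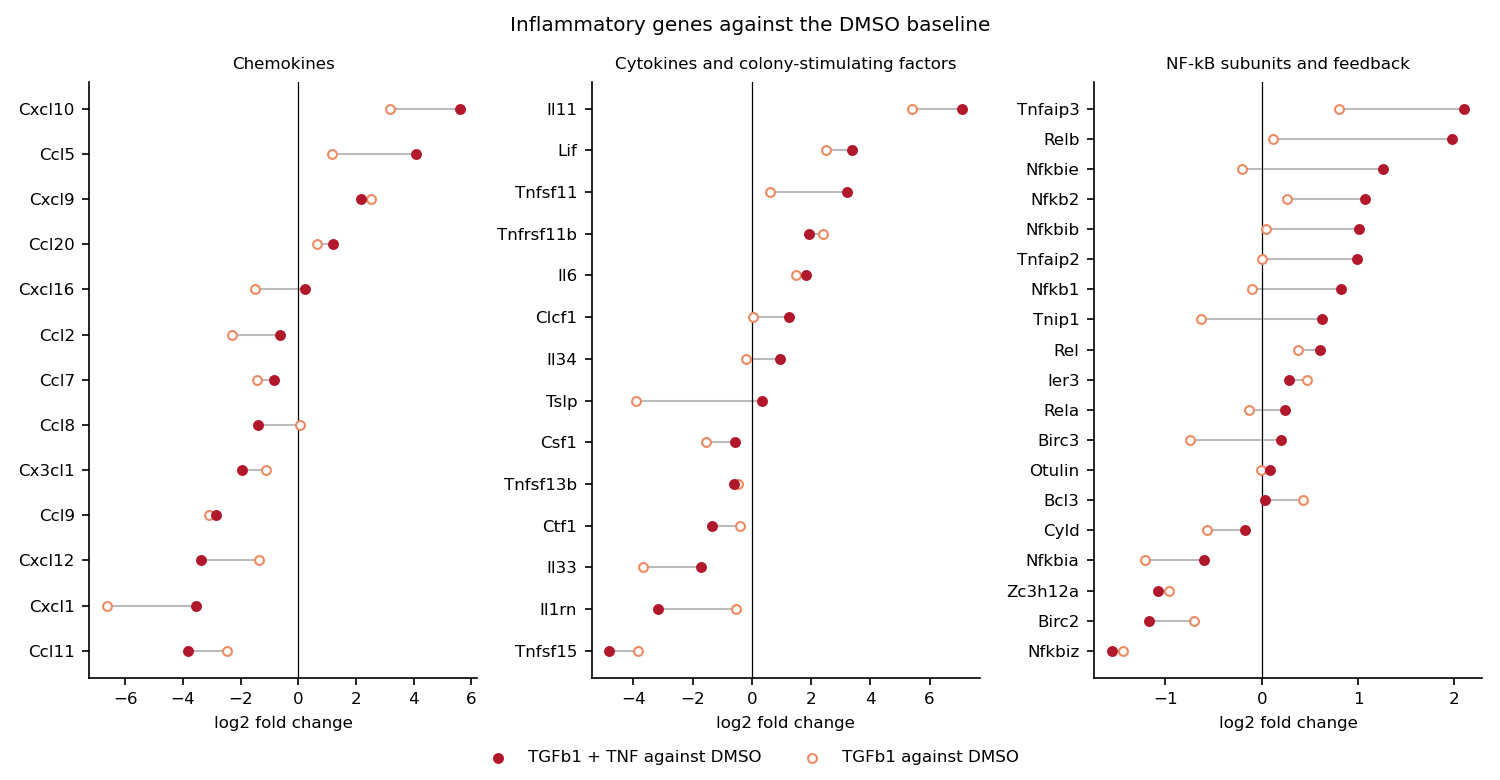
Each row is 1 gene, with its log2 fold change against DMSO after TGFb1 + TNF (filled) and after TGFb1 (open); members with 0 counts in a whole group are left out. Cxcl10, Ccl5, Il11 and Tnfaip3 lie above 0 after both cytokines, while Cxcl1, Ccl2 and Nfkbia lie below 0 and to the right of their TGFb1 value.

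Acute phase and complement genes were lower in 16 of 16 (median -4.06, against -3.94 in TGFb1). C1qtnf3, counted among them by its name, is not a complement component. C3, the central complement protein, had 304, 284 and 308 CPM in TGFb1 + TNF, 107, 90.2 and 95.5 in TGFb1 and 4073, 3619 and 3670.3 in DMSO, above TGFb1 in every library and far below DMSO. Against DMSO, C3 was at -3.67 ± 0.054 on the log2 scale (adjusted p = 1.26e-35). C4b (-7.71 ± 0.091), the C1 proteases C1ra (-4.67 ± 0.080) and C1s1 (-4.54 ± 0.056), and Serpina3g, a protease inhibitor (-4.36 ± 0.13), ended lower than after TGFb1. Saa3, an acute phase protein, had 1.15, 1.92 and 1.64 CPM in the TGFb1 + TNF libraries, against 0.346, 0.0714 and 0.0515 in TGFb1 and 3.91, 2.95 and 2.59 in DMSO. For Saa3, the net log2 fold change was -1.01 ± 0.27 (adjusted p = 0.000856). Leukocyte adhesion genes were higher in 3 and lower in 2 of 6, with a median of -0.30 that turned to 0.85 with no filter and to 0.33 with a stricter one. Alcam, a ligand of CD6 on T cells, had 161, 135 and 129 CPM in TGFb1 + TNF, 13.5, 14.7 and 11.1 in TGFb1 and 0.987, 1.31 and 1.38 in DMSO. Alcam had a net log2 fold change of 6.86 ± 0.13 (adjusted p = 3.64e-38). Cd44, the hyaluronan receptor, was at 2.07 ± 0.043, and Vcam1, which binds integrin VLA-4, had 231, 239 and 239 CPM in the TGFb1 + TNF libraries, against 159, 166 and 161 in TGFb1 and 434, 458 and 466 in DMSO. Against DMSO, Vcam1 was at -0.94 ± 0.043 on the log2 scale (adjusted p = 6.6e-26). Jam2, a junction molecule, was at -1.35 ± 0.084. Icam1 was close to the limit of detection, with 0.223, 0.213 and 0.380 CPM in TGFb1 + TNF, 0.115, 0.107 and 0.0515 in TGFb1 and 0.510, 0.672 and 0.486 in DMSO (adjusted p = 0.156).

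Interferon-stimulated genes were higher in 25 and lower in 1 of 28 (median 1.96). Oasl1, an antiviral OAS family member, had 65.5, 41.1 and 50.02 CPM in the TGFb1 + TNF libraries, against 16.1, 16.5 and 14.1 in TGFb1 and 0.646, 0.705 and 0.365 in DMSO. For Oasl1, the net log2 fold change was 6.47 ± 0.25 (adjusted p = 1.81e-16). Rsad2, viperin, had 61.03, 40.6 and 37.7 CPM in TGFb1 + TNF, 12.2, 13.7 and 8.45 in TGFb1 and 0.306, 0.504 and 1.78 in DMSO. Rsad2 had a net log2 fold change of 5.82 ± 0.46 (adjusted p = 8.96e-09). Isg15, a ubiquitin-like modifier, had 79.2, 54.99 and 54.9 CPM in the TGFb1 + TNF libraries, against 18.9, 18.99 and 13.6 in TGFb1 and 2.21, 6.55 and 4.62 in DMSO. Against DMSO, Isg15 was at 3.82 ± 0.27 on the log2 scale (adjusted p = 2.87e-09). Ifi44 was at 5.07 ± 0.35. One library stood out: TGFb1 + TNF replicate 1 was the highest of its group for 27 of the 28 members, and DMSO replicate 1 the lowest of its group for 25. The list summed to 1422 CPM in TGFb1 + TNF replicate 1, 982 in replicate 2 and 1028 in replicate 3, against 361, 501 and 456 CPM in the DMSO libraries, so the groups did not overlap. Without TGFb1 + TNF replicate 1, 24 members were higher, with a median of 1.79. Antigen presentation genes were higher in 5 and lower in 4 of 13, and without TGFb1 + TNF replicate 1 in 3 higher. Their median of -0.12 turned to 0.01 with a stricter filter and to 0.19 with the solvent matched. Cd74, the invariant chain of MHC class II, had 46.8, 50.1 and 45.5 CPM in TGFb1 + TNF, 20.5, 19.6 and 24.7 in TGFb1 and 4.76, 5.47 and 4.34 in DMSO. For Cd74, the net log2 fold change was 3.28 ± 0.12 (adjusted p = 2.95e-30). Tap2, a peptide transporter subunit, was at -1.66 ± 0.12 and Psmb10, an immunoproteasome subunit, at -0.43 ± 0.15. Psmb10 missed the test without TGFb1 + TNF replicate 2 (-0.31, adjusted p = 0.0823) or DMSO replicate 3 (-0.32, adjusted p = 0.0787), and with the solvent matched (-0.31, adjusted p = 0.213). H2-Q4, a class I gene, was at 0.54 ± 0.19 and missed the test without TGFb1 + TNF replicate 1 (0.33, adjusted p = 0.138) or DMSO replicate 1 (0.36, adjusted p = 0.0975).

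Genes that identify the sorted cells mostly fell. Of 21 adventitial and surface identity genes, 4 were higher and 17 lower (median -2.02). Ly6a had 29.5, 23.6 and 27.3 CPM in the TGFb1 + TNF libraries, against 97.5, 83.1 and 79.3 in TGFb1 and 136, 146 and 143 in DMSO. Ly6a had a net log2 fold change of -2.40 ± 0.075 (adjusted p = 4.52e-28). Ly6c1 had 5.80, 5.66 and 6.62 CPM in TGFb1 + TNF, 27.7, 23.3 and 21.02 in TGFb1 and 49.5, 51.7 and 48.2 in DMSO. Against DMSO, Ly6c1 was at -3.05 ± 0.11 on the log2 scale (adjusted p = 6.41e-31). Pdgfra, the receptor that marks most lung fibroblasts, had 77.7, 74.7 and 77.9 CPM in the TGFb1 + TNF libraries, against 454, 415 and 404 in TGFb1 and 1503, 1468 and 1483 in DMSO. For Pdgfra, the net log2 fold change was -4.27 ± 0.048 (adjusted p = 1.69e-52). Sfrp1, a Wnt antagonist, was at -7.52 ± 0.13. The higher members were Has2, a hyaluronan synthase (3.39 ± 0.071), its relative Has1 (3.54 ± 0.25, named to complete the count), Cd34 and Pi16, a peptidase inhibitor of adventitial fibroblasts (1.86 ± 0.19), with 6.51, 6.15 and 8.10 CPM in TGFb1 + TNF, 8.07, 9.71 and 12.7 in TGFb1 and 1.74, 1.95 and 2.03 in DMSO.

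Wnt and BMP genes were mostly lower. Wnt ligands, antagonists and targets were higher in 9 and lower in 14 of 23 (median -2.10), with Wnt11, a noncanonical ligand, at 5.33 ± 0.16 and Fzd1, a Wnt receptor, at -4.33 ± 0.055. BMP and ID genes were higher in 3 and lower in 12 of 17 (median -1.48). Id3, an inhibitor of helix-loop-helix factors and a BMP target, had 7.14, 9.43 and 8.63 CPM in the TGFb1 + TNF libraries, against 41.02, 41.4 and 48.2 in TGFb1 and 274, 264 and 252 in DMSO (log2 fold change -4.97 ± 0.089, adjusted p = 6.02e-31), and its relative Id4 (-5.05 ± 0.14), the BMP target Atoh8 (-5.73 ± 0.16) and Smad9 (-5.20 ± 0.17) fell with it. Early response genes were higher in 6 and lower in 14 of 21 (median -1.69, and also -1.69 in TGFb1). Fos, the AP-1 subunit, had 28.2, 23.2 and 23.2 CPM in TGFb1 + TNF, 163, 112 and 112 in TGFb1 and 1644, 1475 and 1431 in DMSO. Fos had a net log2 fold change of -5.93 ± 0.20 (adjusted p = 9.54e-14). Fosb (-5.71 ± 0.18), Nr4a1, a nuclear receptor (-5.14 ± 0.24), and Zfp36, a decay factor of cytokine transcripts (-5.71 ± 0.14), were far below DMSO. Replicate 1 was the highest of its group for 20 of the 21 early response genes in TGFb1 + TNF, for 14 in TGFb1 and for 17 in DMSO. Without TGFb1 + TNF replicate 1 the counts were 6 and 14 and the median -1.73.

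Growth factors and receptors were higher in 12 and lower in 13 of 26. Their median of -0.02 turned to 0.04 with a stricter filter, to 0.05 with only the compared groups in the fit and to 0.01 without DMSO replicate 1. Hbegf, a ligand of the EGF receptor, had 652, 611 and 586 CPM in the TGFb1 + TNF libraries, against 83.4, 90.3 and 97.5 in TGFb1 and 10.5, 11.8 and 13.1 in DMSO (log2 fold change 5.71 ± 0.065, adjusted p = 2.93e-52), and, like Pdgfb, was highest after both cytokines. Igf1, insulin-like growth factor 1, had 0.335, 0.818 and 0.799 CPM in TGFb1 + TNF, 23.1, 23.98 and 21.9 in TGFb1 and 45.9, 40.5 and 42.2 in DMSO. Against DMSO, Igf1 was at -6.03 ± 0.17 on the log2 scale (adjusted p = 7.46e-24). Vegfd, a lymphatic growth factor, had 5.28, 6.12 and 4.64 CPM in the TGFb1 + TNF libraries, against 26.6, 20.9 and 20.5 in TGFb1 and 1200.1, 1216 and 1198 in DMSO. For Vegfd, the net log2 fold change was -7.81 ± 0.087 (adjusted p = 8.81e-36). Igf1 and Vegfd were lowest after both cytokines. Prostaglandin and oxidant genes were higher in 7 and lower in 8 of 15 (median -0.12): Ptgs2, the inducible cyclooxygenase, had 347, 296 and 256 CPM in TGFb1 + TNF, 123, 105 and 107 in TGFb1 and 52.1, 43.5 and 45.9 in DMSO. Ptgs2 had a net log2 fold change of 2.67 ± 0.095 (adjusted p = 8.33e-15). Ptgs1 was at 1.89 ± 0.041, Sod3, the extracellular superoxide dismutase, at -3.73 ± 0.17 and Ptger4, a prostaglandin E2 receptor, at -2.11 ± 0.13.

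Cell cycle genes were higher in 27 and lower in 2 of 29 (median 1.05, against 1.06 in TGFb1). The lower count was 1 without TGFb1 + TNF replicate 2 or 3 or without DMSO replicate 2 or 3. Aurka and Bub1, mitotic kinases, were at 2.32 ± 0.061 and 2.01 ± 0.075, Ccnb1, cyclin B1, at 1.81 ± 0.14, and Cdkn1a, the inhibitor p21, at 2.79 ± 0.073, with 95.6, 90.1 and 91.97 CPM in the TGFb1 + TNF libraries, against 49.3, 57.1 and 52.5 in TGFb1 and 13.3, 14.4 and 12.2 in DMSO. Genes of the ATF4 program, which supplies amino acids under stress, were higher in 18 of 20 and not past the threshold in the other 2 (median 2.02), with 1 member lower by limma voom or with the solvent matched. Slc7a11, the cystine transporter, had 184, 175 and 171 CPM in TGFb1 + TNF, 32.8, 49.1 and 43.4 in TGFb1 and 13.9, 17.5 and 19.6 in DMSO. Against DMSO, Slc7a11 was at 3.38 ± 0.13 on the log2 scale (adjusted p = 1.36e-13). Psph, the last enzyme of serine synthesis, was at 3.38 ± 0.077, and Chac1, which degrades glutathione, at 2.97 ± 0.11. Secretory pathway and unfolded protein genes were higher in 17 and lower in 2 of 20 (median 0.57), the lower count being 1 without TGFb1 + TNF replicate 1 or 3 or without DMSO replicate 1 or 3. Hspa5, the chaperone BiP, was at 1.13 ± 0.042 and Herpud1, an ER degradation factor, at 1.33 ± 0.042.

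Glycolysis and hypoxia genes were higher in 18 and lower in 2 of 22 (median 1.49, against 2.08 in TGFb1). Slc16a3, a lactate exporter, had 83.1, 84.4 and 87.2 CPM in the TGFb1 + TNF libraries, against 123, 135 and 125 in TGFb1 and 4.01, 3.42 and 4.38 in DMSO. For Slc16a3, the net log2 fold change was 4.44 ± 0.079 (adjusted p = 6.64e-44). Hk2, a hexokinase, was at 2.78 ± 0.056 and Pfkp, a phosphofructokinase, at 2.62 ± 0.053, while Adm, adrenomedullin, fell to 0.484 ± 0.214 CPM in TGFb1 + TNF, against 10.7 ± 1.39 in TGFb1 and 106 ± 2.04 in DMSO (log2 fold change -7.78 ± 0.16, adjusted p = 1.05e-37). Sterol and fatty acid synthesis genes were higher in 12, lower in 4 and not past the threshold in 6 of 22 (median 0.46). Acaca and Cyp51, enzymes of fatty acid and sterol synthesis, were at 1.05 ± 0.060 and 0.84 ± 0.045. Lipid handling and adipogenic genes were higher in 4 and lower in 10 of 14 (median -1.53), with Apoe, apolipoprotein E (-5.73 ± 0.14), Abca1, the cholesterol exporter (-3.38 ± 0.055), and Lpl, lipoprotein lipase (-2.54 ± 0.051), all far below DMSO.

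Several of these genes share bases with another gene on the opposite strand, and the strand setting of the counting is not stated: Cxcl16 with Zmynd15, Cygb with Prcd, Aspn and Ogn with Cenpp, Ctsw with Fibp, Cxcl10 with Art3, Stard5 with Il16, Ezr with Sytl3, Cxadr with Btg3 and Psph with Cct6a. Ly6c1, H2-Q4, C4b, C1ra, C1s1, Serpina3g and Hmga1 have close copies with which reads can be shared, so their levels are uncertain.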

How the data were processed

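RNA of mouse lung Ly6C+/Sca-1+ fibroblasts was sequenced with a stranded total RNA kit, per the labels' protocols. The authors deposited whole-number read counts per gene, in 1 table of 52636 genes and 21 libraries that matches 21 single-library files value for value. The genome builds GRCh38 and GRCm38 are named per the submitters' processing notes; no source used here names the aligner, counting tool or strand setting. Gene names and coordinates came from GENCODE M21 (GRCm38), which held 52489 of the IDs; the 147 others carried 0.00736% of counts.

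Counts were scaled by TMM, filtered with filterByExpr and fitted with robust quasi-likelihood in edgeR 4.0.16 (R 4.3.3), with 1 coefficient for each of the 7 groups over all 21 libraries. Genes were called at a Benjamini-Hochberg adjusted p below 0.05 over 16197 genes. Replicates were numbered in accession order, so no number pairs libraries. Classes of net state are defined where they are first counted. A group with 0 counts was set to 3 counts over the group for a bound, and ratios against 1 to 3 counts carry exact 95% counting intervals, which cover counting error only.

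Genes were named if their mean was at least 2 log2 CPM over the 9 libraries and their symbol was not a predicted one: the 10 highest and 10 lowest net changes whose groups did not overlap, 5 per class, up to 4 called members of each of 30 lists, and 27 by name. Others are said to be chosen after their values were seen. The members, classes and lists were chosen with earlier results of these data known. Alternatives were DESeq2 1.42.0, limma 3.58.1 voom, RLE factors, other filters, only the compared groups, other margins and sizes, the solvent-matched sum, TGFb1 + DMSO as the middle state, and each library left out. The fit was checked on simulated counts. The other 4 groups entered the fit and are not described here, except TGFb1 + DMSO in the solvent checks. Some genes that the naming rule picks are not reported here.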

Additional observations from a re-analysis of the deposited data

How the results depend on the processing

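The number of genes called between TGFb1 + TNF and DMSO ranged from 10234 with the solvent matched to 12316 with no filter. Of the 30 list medians, 23 moved with the solvent matched, 15 with no filter and at most 8 under any other alternative. A move was a shift of at least the SD of the list median over the TGFb1 + TNF libraries. Of 184 named genes, 173 kept their direction and their side of the threshold under the 14 alternatives that tested them; Icam1 was filtered out under the stricter filter, and the others were tested under every one. With the solvent matched, Cnn1 reversed to -0.42 and Cxcl16 to -0.06, and Lox (0.06, adjusted p = 0.541), Kitl, Psmb10 and Cxcl5 were no longer called. The Cxcl5 estimate was still a large fall, at -7.63 (adjusted p = 0.983). The cause of these changes was not tested. Kitl was also lost with no filter (-0.24, adjusted p = 0.0628), where Cnn1 was called (0.17), as it was without mitochondrial, rRNA and unnamed genes (0.15). Class sizes followed the limits set. With a narrower margin, 15 raised and 6 lowered genes were back at baseline, and 66 higher and 62 lower genes were new. With a margin of 2-fold in place of 1.5-fold these were 181, 111, 690 and 711. With a size of 1.5-fold for the TGFb1 or new change, 67 raised genes overshot, 212 were back, 731 were kept and 956 went further, 48 lowered genes overshot, 161 were back and 1296 went further, and 926 higher and 654 lower genes were new. The lowered unresolved genes numbered 350 with no filter and 83 with the stricter one, which tests fewer genes, and 180 to 320 with 1 library left out; the raised unresolved genes numbered 81 with the stricter filter. With TGFb1 + DMSO as the middle state, 44 raised genes were back at baseline, 41 of them shared, and 35 overshot, 31 of them shared. Other classes shared less: 346 raised genes were kept, 231 of them shared, and 906 lowered genes were kept, 666 of them shared. Of 37 lowered genes that overshot, 23 were shared. New genes numbered 282 higher, 215 of them shared, and 256 lower, 188 of them shared. No paired analysis was possible because the labels give no replicate numbers shared between groups. Genes of a few counts, such as Icam1, are limited by depth.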
